A study of Mus musculus with 49 samples.

Results

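10 early-response transcription factors of splenic CD8+ T cells were followed, namely the cyclic AMP factors *Crem*, *Creb1*, *Atf1* and *Atf3*, the zinc finger factors *Egr1*, *Egr2* and *Egr3*, and the orphan nuclear receptors *Nr4a1*, *Nr4a2* and *Nr4a3*. The 10 genes were taken by symbol from the 23992 gene symbols of the deposited RNA-Seq tables, the longest transcript standing for each gene, and 10 of 10 passed the filter on low counts, which kept 15566 genes in all. *Crem* was also followed through each of its 16 transcripts.

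The cells came from adult C57BL/6J mice of both sexes and of 2 lines made with CRISPR/Cas9. In the Stat5a line the knock-in (KI) allele of *Stat5a* carries Y694F and in the Stat5b line the KI allele of *Stat5b* carries Y699F, each a tyrosine-to-phenylalanine change at the residue whose phosphorylation activates the protein. KI mice were homozygous, wild-type (WT) mice were littermates from heterozygous matings, and the alleles are in the germline and so in every cell of the animal. CD8+ T cells purified from spleen by bead selection were taken without culture (0 hr) or after 4, 24 or 48 hr with recombinant human IL-2 at 500 IU/ml. No group was cultured without IL-2, so an effect of IL-2 and an effect of time in culture cannot be told apart, and "response" below means the change from 0 hr. Each of the 16 groups of line, genotype and time held 3 libraries. The labels do not say that replicates came from separate animals, so p-values measure only the spread between these libraries, which may be technical.

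Of 48 libraries, 47 were used. Replicate 3 of the Stat5a KI group at 4 hr held 1028515 reads on transcripts and was left out. The others held between 17369112 and 60200653 reads, with a median of 41410666. Replicate 2 of the Stat5a WT group at 4 hr was the shallowest of these, and only 44.86% of its mapped reads lay on transcripts, against 68.72% to 84.43% in the others. Its RPKM (reads per kilobase of transcript, scaled to the mapped reads) was therefore low for most genes, *Atf1* and *Creb1* included, whereas the fitted fold changes below rest on counts scaled by TMM. The label of the cells was checked on 6 CD8+ T cell markers (*Cd8a*, *Cd8b1*, *Cd3d*, *Cd3e*, *Cd3g* and *Cd2*). Their summed level was between 668.9 and 1860 RPKM in the 47 libraries, and in no library was a marker at 0 reads. These values show T cell RNA and do not measure purity, and markers of other cells are given below.

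CREB1 and ATF1 are constitutive factors that sit on cyclic AMP response elements and are switched on by phosphorylation, whereas CREM gives rise to activators and repressors of the same elements. An internal promoter of *Crem* makes ICER, the inducible cAMP early repressor, which lacks the activation domain and shuts off cyclic AMP target genes, its own promoter included. The EGR and NR4A factors are transcribed within minutes of antigen receptor signals, through serum response factor, CREB and MEF2 sites, and without new protein synthesis. In T cells EGR2, EGR3 and the NR4A receptors are known for restraining activation, in anergy and in exhaustion, and *Nr4a1* is a common reporter of recent antigen receptor signalling. STAT5, activated by IL-2, drives *Cish*, *Il2ra* and other cytokine response genes.

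The sequences shown are upstream stretches of the *Nr4a* genes with several cores of the cyclic AMP response element, and 1 of *Egr2* where such a core lies near a CArG box. They come from RefSeq promoters of GRCm38.p6 (mm10), 250 bases upstream of each start, read 5′ to 3′ in the direction of the gene. Capitals mark the core TGACG of the cyclic AMP response element on either strand (CGTCA on the other strand) and, in *Egr2*, also the CArG box bound by serum response factor. The first is chr15:101266596-101266845 (+ strand), the whole window of *Nr4a1*, and the others are chr4:48045080-48045109 (+), chr2:57124104-57124133 (-) and chr10:67537793-67537822 (+).
Nr4a1: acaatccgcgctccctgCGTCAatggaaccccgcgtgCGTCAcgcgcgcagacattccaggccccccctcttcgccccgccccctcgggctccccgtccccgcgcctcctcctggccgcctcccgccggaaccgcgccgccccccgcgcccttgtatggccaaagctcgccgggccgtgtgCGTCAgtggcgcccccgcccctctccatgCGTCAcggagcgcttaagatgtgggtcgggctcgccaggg
Nr4a3: agcgtcccatgtCGTCAcatTGACGtctcg
Nr4a2: gccgggcTGACGgggccgcTGACGcgcttg
Egr2: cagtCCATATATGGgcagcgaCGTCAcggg

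The core TGACG stood in 17.8% of the 32851 promoter windows of the table, and 45 of them (0.137%) held it 4 or more times. *Egr2* has 5 starts in the table and the other 6 genes have 1 each. At *Egr2* the window of the counted transcript's start was taken, which held 2 cores, and of its 5 windows 3 hold 2 cores and 2 hold 0. *Nr4a1*, *Nr4a2* and *Nr4a3* held 4 each, *Atf1* and *Atf3* held 1 each and *Creb1* held 0. The full palindrome TGACGTCA, found in 1.5% of windows and containing the core, was in none of these 7 windows, and neither was the STAT motif TTCNNNGAA, found in 7.0%. The EGR site GCGNGGGCG, found in 4.7% on either strand, was in 1 place each upstream of *Creb1*, *Nr4a1* and *Nr4a2*. A CArG box was in 1.5% of windows and, among these genes, in *Egr2*. The start of *Nr4a2* in the table lies 8965 bases from the start of the transcript counted in the files, so its window may not be the promoter of that transcript. *Egr3* was not in the promoter table, and the promoters of *Crem* and *Egr1* were not used here. A match is a description of letters and not a site.

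IL-2 culture split these genes. In WT cells of both lines *Crem* rose several-fold at 4 hr and was back at or under its 0 hr level at 24 hr, whereas *Atf3*, *Egr1*, *Nr4a1*, *Nr4a2* and *Nr4a3* were high in fresh cells and fell at 4 hr and after. *Egr2* and *Egr3* differed between the lines in which calls they passed, and *Creb1* and *Atf1* stayed within 2-fold throughout. A gene counted as called when edgeR's quasi-likelihood test gave it an adjusted p no higher than 0.05 (Benjamini-Hochberg, over the 15566 genes) and its fold change was no smaller than 2. At 4 hr in the Stat5a line 1 of the 10 genes was called higher (10.0% of all genes tested) and 6 lower (11.4%), so 7 were called where 21.4% of all genes were. In the Stat5b line 1 was higher (5.83% of all genes) and 5 lower (9.89%), or 6 called against 15.7%. The median log2 fold change over the 10 genes was -1.50 (Stat5a line) and -0.98 (Stat5b line), beside 0.01 and -0.03 over all genes. At 24 hr 6 genes were called in the Stat5a line (22.9% of all genes) and 5 in the Stat5b line (22.5%), each of them lower. At 48 hr the counts were again 6 (36.6%) and 5 (35.3%), each of them lower.

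**Figure D1:**
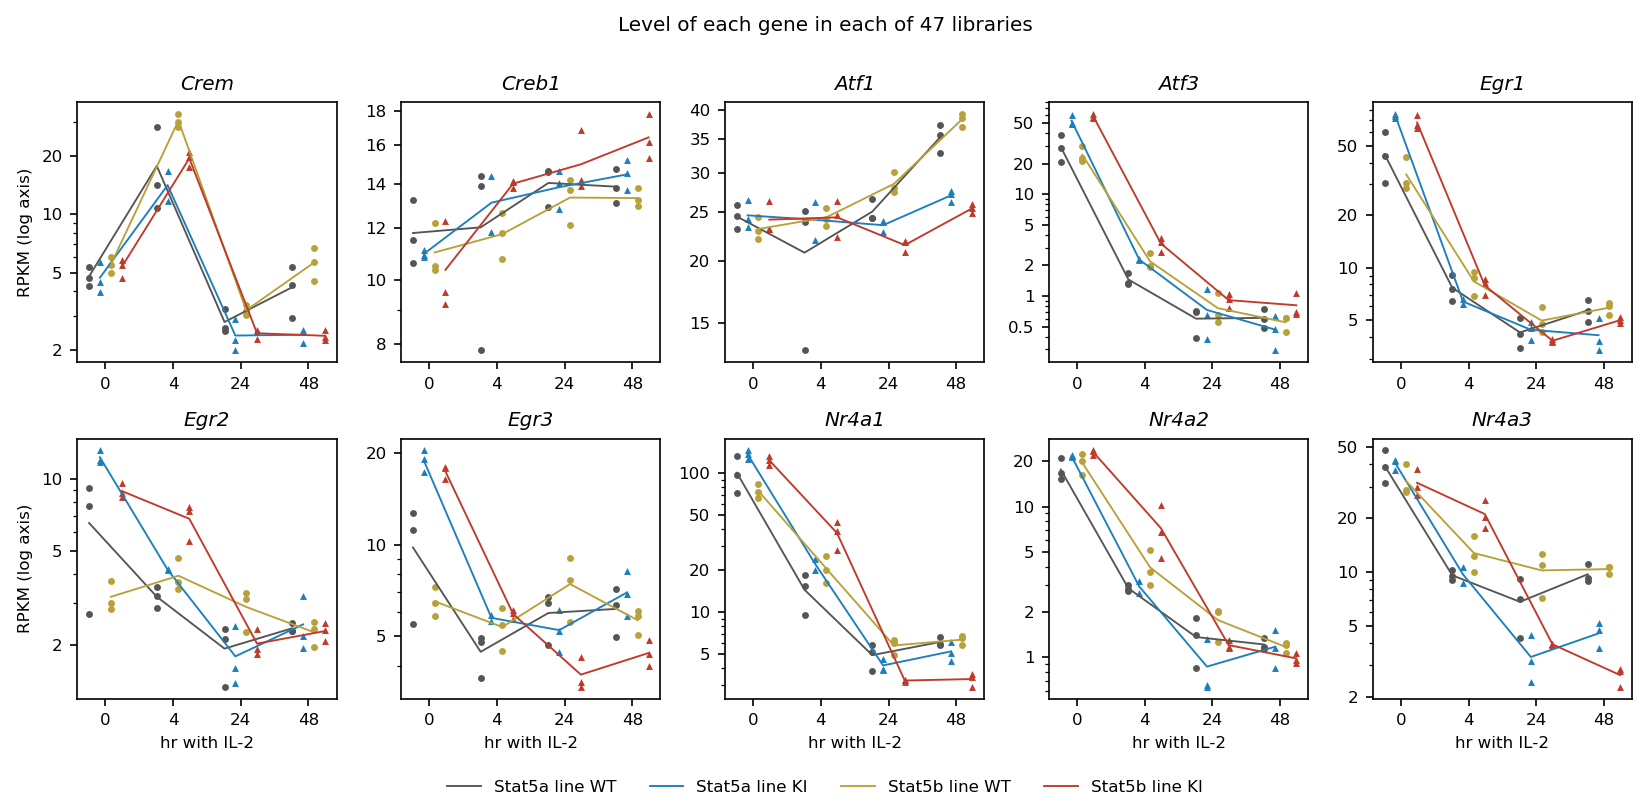
RPKM (log axis) of each of the 10 genes in each of 47 libraries against hr with IL-2, with points for libraries and lines through group means. *Crem* peaks at 4 hr in the 4 combinations of line and genotype, *Atf3*, *Egr1* and the *Nr4a* genes are highest at 0 hr, and *Creb1* and *Atf1* span a narrow range.

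*Crem* encodes the cyclic AMP element modulator and its repressor ICER. At 0 hr the Stat5b WT libraries measured 4.99, 5.47 and 6.00 RPKM for it, and at 4 hr 33.0, 30.1 and 28.4 RPKM. The Stat5a WT libraries measured 4.25, 4.71 and 5.37 RPKM at 0 hr and 14.2, 10.8 and 28.4 RPKM at 4 hr. Every 4 hr library stood above every 0 hr library in both lines, though the Stat5a WT libraries at 4 hr differed from each other by more than those of the Stat5b line. *Crem* rose 4.93-fold in Stat5b WT cells (log2 2.30 ± 0.19 SE, adjusted p = 1.9e-12, edgeR) and 3.71-fold in Stat5a WT cells (1.89 ± 0.19, adjusted p = 1.55e-10). Between 4 and 24 hr it fell 9.63-fold in Stat5b WT cells (-3.27 ± 0.20, adjusted p = 7.17e-16) and 7.18-fold in Stat5a WT cells (-2.84 ± 0.20, adjusted p = 2.75e-14). At 24 hr the level was 3.16, 3.38 and 3.03 RPKM in Stat5b WT and 2.57, 3.26 and 2.50 RPKM in Stat5a WT, under all 0 hr libraries, at log2 -0.97 and -0.95 from 0 hr, short of 2-fold. It passed 2-fold in both lines without replicate 1 at 0 hr (-1.02 and -1.03) or replicate 2 at 24 hr (-1.01 and -1.09), with the genes tested and the scaling held. At 48 hr it was 5.66, 6.72 and 4.51 RPKM in Stat5b WT, which overlaps 0 hr (-0.13, adjusted p = 0.536).

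From 4 to 24 hr, 5 of the 10 genes were called in Stat5a WT cells (19.6% of all genes) and 4 in Stat5b WT cells (14.8%), each of them lower. Those called in both lines were *Crem*, *Atf3*, *Nr4a1* and *Nr4a2*, and *Egr1* was called in the Stat5a line (-1.14 ± 0.22). Without replicate 2 of the Stat5a WT group at 4 hr, *Egr1* stood at -0.71 and lost its call, and without replicate 1 at 4 hr or replicate 3 at 24 hr of the Stat5b WT groups *Nr4a2* stood at -0.90 and -0.95 and lost its own. By limma on RPKM with a pseudocount of 1, only *Crem* and *Nr4a1* stayed called in each line, and *Atf3*, *Nr4a2* and *Egr1* were under 2-fold. From 24 to 48 hr, 0 of the 10 genes were called in Stat5a WT (9.39% of all genes) or Stat5b WT cells (7.87%), and at the adjusted p alone 2 passed in each line. *Crem* was one of them, at 0.56 (Stat5a line) and 0.83 (Stat5b line).

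The 16 transcripts of *Crem* did not rise alike. The 7 longest rows, which share the 3′ exons, held 98.7% to 100.1% of the reads of the longest row, so the reads of a shared exon recur in each row that holds it. The rows NM_001110854 and NM_001110855, which begin at the internal exon chr18:3281688-3281747 (60 bases, mm10) known as the start of ICER, held 94.4% and 93.8%. The rows NM_001110851 and NM_001110852, which begin far upstream and lack the shared 3′ exons, held 7.5% and 6.7%. They are named distal-start rows below after their first exon chr18:3337380-3337589. Their reads come from all their exons and not from that exon alone, so they do not measure use of the distal start. The exons found only in a full-length row make up 19.0% of the 2387 bases of NM_001110850. Their reads alone were not measured here. The rows NM_001110851 and NM_001110852 span chr18:3294166-3337589, where these exons also lie, and so may count reads of them. The full-length row minus the internal-start row NM_001110855 leaves their reads less those of the internal first exon, a net count that falls when either the former fall or the latter rise. It came to 1.51% to 4.27% of the full-length row's reads in the 4 hr libraries and 3.54% to 23.23% at the other times. The 4 hr range overlaps the rest through Stat5b KI libraries at 0 hr. Coverage along the transcript was not tested.

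In Stat5b WT cells the internal-start row NM_001110855 held 686, 771 and 808 reads at 0 hr and 5385, 4505 and 3710 reads at 4 hr, while the net count was 44 to 53 reads at 0 hr and 57 or more at 4 hr. The distal-start row NM_001110852 held 54, 65 and 75 reads at 0 hr and 75 or more at 4 hr, and its libraries overlap. On RPKM the 14 other rows changed by log2 2.45 to 2.57 between 0 and 4 hr in Stat5b WT cells and the 2 distal-start rows by 0.57 to 0.66. In Stat5a WT cells the ranges were 1.89 to 2.00 and 0.44 to 0.55. Tested by edgeR, the distal-start row stood at 0.48 in Stat5b WT cells (adjusted p = 0.0543) and at 0.44 in Stat5a WT cells (adjusted p = 0.0731), not called in either. In KI cells the distal-start rows changed by 0.44 to 0.49 (Stat5a) and 0.90 to 0.92 (Stat5b), and the 14 others by 1.59 to 1.78 and 1.87 to 1.94. In Stat5b KI cells the row NM_001110852 held 48 to 60 reads at 0 hr and 92 or more at 4 hr, with no overlap, and passed the adjusted p short of 2-fold (0.70, adjusted p = 0.00639). The 14 other rows thus changed by more than the distal-start rows in each of the 4 line and genotype groups, and the rows cannot say how much of the change was ICER.

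**Figure D2:**
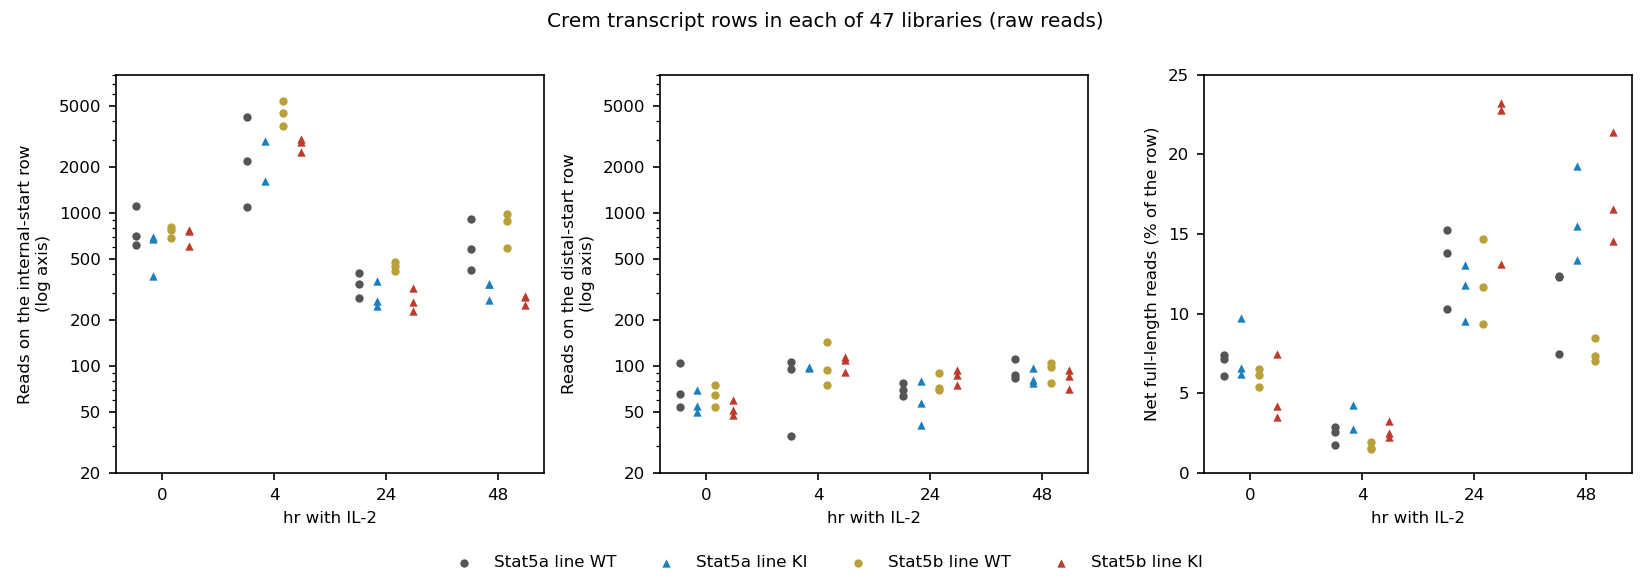
Reads on the internal-start row and on the distal-start row of *Crem* (log axes) and the net count (full-length row minus internal-start row) in % of the full-length row, against hr with IL-2, with a point for each of 47 libraries. The internal-start row rises at 4 hr, as from 686, 771 and 808 to 5385, 4505 and 3710 reads in Stat5b WT cells, and the net count runs from 1.51% to 4.27% at 4 hr and from 3.54% to 23.23% at the other times.

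*Creb1* and *Atf1*, the constitutive partners of CREM, changed by under 2-fold in each comparison of this study. In the order of the 16 group means of *Creb1*, 0 of the 15 neighbouring pairs stood apart without overlap, though groups farther apart did, such as Stat5b KI (15.3, 16.2 and 17.8 RPKM) and Stat5b WT cells (12.96, 13.2 and 13.8 RPKM) at 48 hr. *Atf1* was highest in Stat5b WT cells at 48 hr, at 37.1, 38.6 and 39.3 RPKM, against 22.9, 22.1 and 24.5 RPKM at 0 hr. Those libraries do not overlap, and the difference was log2 0.55 ± 0.07 (adjusted p = 1.35e-08). In Stat5b KI cells at 48 hr *Atf1* measured 25, 26 and 25.5 RPKM, all under the WT libraries, at -0.67 ± 0.07 from WT (adjusted p = 3.58e-10). Stat5a KI cells at 48 hr stood at -0.44 ± 0.07 from WT (adjusted p = 4.86e-06).

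*Atf3*, a stress-induced repressor of the same family, fell the most of the 10 genes in WT cells at 4 and 24 hr. In Stat5a WT cells it measured 28.5, 38.4 and 20.9 RPKM at 0 hr, 1.70, 1.35 and 1.33 RPKM at 4 hr and 0.390, 0.720 and 0.695 RPKM at 24 hr. Stat5b WT cells went from 21.1, 22.4 and 29.7 RPKM at 0 hr to 2.65, 1.98 and 1.94 RPKM at 4 hr. No 4 hr library came near a 0 hr library. The fall at 4 hr was 19.6-fold in the Stat5a line (-4.29 ± 0.27, adjusted p = 4.07e-16) and 12.5-fold in Stat5b (-3.64 ± 0.25, adjusted p = 1.2e-14), and by 24 hr it was 54.4-fold and 36.4-fold.

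*Egr1*, the founding member of the EGR factors, measured 43.8, 59.9 and 30.4 RPKM in Stat5a WT cells at 0 hr and 7.51, 9.06 and 6.41 RPKM at 4 hr. In the Stat5b line WT cells went from 43.2, 30.7 and 28.8 RPKM to 8.67, 9.41 and 6.91 RPKM. The times do not overlap, and *Egr1* fell 5.4-fold and 4.64-fold (-2.43 ± 0.22 and -2.21 ± 0.22, adjusted p = 8.33e-12 and 7.67e-11). *Egr2* and *Egr3*, both linked to anergy, were less clear. *Egr2* in Stat5a WT cells measured 7.70, 9.19 and 2.71 RPKM at 0 hr and 3.51, 2.85 and 3.22 RPKM at 4 hr, with replicate 3 at 0 hr down among the 4 hr libraries. It was not called (-0.98 ± 0.26, adjusted p = 0.00131), but would be without replicate 3 at 0 hr (-1.30) or replicate 2 at 4 hr (-1.14). In Stat5b WT cells *Egr2* was 3.72, 2.84 and 3.01 RPKM at 0 hr and 4.64, 3.67 and 3.43 RPKM at 4 hr, which overlap (0.12 ± 0.25, adjusted p = 0.727).

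*Egr3* in Stat5a WT cells measured 11.2, 12.7 and 5.49 RPKM at 0 hr and 4.92, 4.78 and 3.63 RPKM at 4 hr, again with replicate 3 at 0 hr the lowest. Its fall at 4 hr was called (-1.06 ± 0.22, adjusted p = 0.000109), yet the change dropped under 2-fold without replicate 1 or 2 at 0 hr (-0.95 and -0.81) or replicate 3 at 4 hr (-0.76), and without replicate 1 at 4 hr when the rest were scaled anew (-0.93). In Stat5b WT cells it was 7.27, 5.80 and 6.45 RPKM at 0 hr and 5.44, 6.18 and 4.46 RPKM at 4 hr (-0.45, adjusted p = 0.0836). *Egr2* and *Egr3* thus overlapped between 0 and 4 hr in Stat5b WT cells. At 24 and 48 hr *Egr2* had fallen in Stat5a WT cells (-1.93 and -1.69), and *Egr3* stood at -0.89 and -0.88, which became -1.16 and -1.10 without replicate 3 at 0 hr.

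*Nr4a1* (Nur77) was the most abundant of the 10 genes at 0 hr. Stat5a WT libraries measured 97.3, 133.9 and 71.8 RPKM at 0 hr, 18.6, 9.61 and 15.4 RPKM at 4 hr and 3.79, 5.17 and 5.81 RPKM at 24 hr. Stat5b WT libraries measured 83.9, 66.7 and 72.8 RPKM at 0 hr, 25.6, 20.2 and 16.3 RPKM at 4 hr and 6.36, 6.01 and 4.96 RPKM at 24 hr. Each time lies wholly under the time before it. *Nr4a1* fell 6.92-fold in Stat5a WT (-2.79 ± 0.18, adjusted p = 1.02e-15) and 4.06-fold in Stat5b WT cells at 4 hr (-2.02 ± 0.17, adjusted p = 2.77e-12), and 23.1-fold and 14.7-fold by 24 hr.

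*Nr4a2* (Nurr1) went from 16.8, 20.9 and 15.1 RPKM at 0 hr to 2.83, 2.74 and 3.03 RPKM at 4 hr in Stat5a WT cells (-2.56 ± 0.25, adjusted p = 8.23e-11), and in Stat5b WT cells it fell by 2.48 on the log2 scale. *Nr4a3* (Nor1) went from 38.9, 47.9 and 31.3 RPKM to 8.96, 10.2 and 9.52 RPKM in Stat5a WT cells (-1.95 ± 0.24, adjusted p = 9.75e-09) and from 40.0, 28.0 and 28.8 RPKM to 16.0, 12.2 and 10.0 RPKM in Stat5b WT cells (-1.51 ± 0.23, adjusted p = 1.18e-06). *Nr4a3* kept more of its level than its relatives at later times. In Stat5b WT cells it still measured 10.7, 9.69 and 10.7 RPKM at 48 hr, where *Nr4a1* measured 6.56, 5.80 and 6.71 RPKM and *Nr4a2* 1.24, 1.07 and 1.20 RPKM.

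Over the 16 groups the mean log2 levels of *Nr4a1* and *Nr4a2* correlated at r = 0.985 and those of *Atf3* and *Egr1* at 0.978, while *Crem* correlated with *Creb1* at -0.542, with *Atf1* at -0.13 and with the other 7 genes at 0.0251 to 0.478. *Atf3* and the *Egr* and *Nr4a* genes had their highest group mean at 0 hr, and the values describe these 16 means only. The 5 genes most like *Crem* were *Sult2b1* (0.955), *Ifngr1* (0.954), *Arl13b* (0.95), *Pofut2* (0.945) and *Ctla2a* (0.942), of which *Ifngr1*, the ligand-binding chain of the interferon gamma receptor, reached 441 RPKM. On log2 RPKM they ranked 5, 2, 1, 438 and 8. The 5 most like *Egr2* were *Hspa1a*, *Stbd1*, *Hspa1b*, *Hs3st2* and *Hspa1l* (0.935 to 0.939), an order that did not hold on log2 RPKM, where they ranked 27, 15, 42, 48 and 221, and the highest group means of *Stbd1* and *Hs3st2* were 0.688 and 0.196 RPKM. Those most like *Nr4a1* were *Nr4a2*, *Hspa1a*, *Mir23a*, *Fosb* and *Hspa1b* (0.975 to 0.985), which ranked 2, 55, 16, 43 and 72 on log2 RPKM. *Hspa1a*, *Hspa1b* and *Hspa1l* encode HSP70 chaperones, and *Hspa1a* and *Hspa1b* are near-identical copies whose reads cannot be told apart with certainty.

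In KI cells *Crem* was again called higher at 4 hr, and the other calls were lower. *Crem* rose at 4 hr in Stat5a KI cells from 3.96, 4.47 and 5.68 RPKM to 11.7 and 16.7 RPKM (2 libraries, 1.37 ± 0.21, adjusted p = 8.66e-07). In Stat5b KI cells it rose from 5.50, 4.69 and 5.80 RPKM to 19.8, 21.0 and 17.5 RPKM (1.64 ± 0.19, adjusted p = 5.56e-09). The rise was thus present with either allele. At 24 and 48 hr *Crem* had fallen under its 0 hr level by 1.21 and 1.22 on the log2 scale in Stat5a KI cells and by 1.29 and 1.37 in Stat5b KI cells. In Stat5a KI cells 8 of the 10 genes were called at 4 hr (17.8% of all genes), 8 at 24 hr (21.1%) and 8 at 48 hr (26.0%). In Stat5b KI cells 6 were called at 4 hr (13.8%), 8 at 24 hr (15.8%) and 8 at 48 hr (18.8%). Apart from *Crem* at 4 hr, each of these calls was lower. The group mean RPKM of each myeloid and dendritic cell marker measured also fell from 0 to 4 hr in KI cells of both lines. In Stat5b KI cells *Lyz2* (myeloid) went from 75 to 47.3 RPKM and *Itgax* (dendritic) from 21 to 6.66 RPKM. The part of such cells in the falls was not tested.

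*Nr4a1* in Stat5a KI cells measured 126.3, 137.9 and 145.9 RPKM at 0 hr, 20.0 and 24.3 RPKM at 4 hr and 4.65, 3.94 and 3.85 RPKM at 24 hr (-5.26 ± 0.20 from 0 hr, adjusted p = 3.58e-22). In Stat5b KI cells it measured 124.3, 133.5 and 114.1 RPKM at 0 hr, 38.4, 44.7 and 28.3 RPKM at 4 hr and 3.27, 3.25 and 3.18 RPKM at 24 hr (-5.41 ± 0.20, adjusted p = 3.13e-22). The times do not overlap in either line. *Nr4a3* in Stat5b KI cells measured 29.8, 38.0 and 27.0 RPKM at 0 hr and 20.4, 25.2 and 17.7 RPKM at 4 hr, which was not called (-0.81 ± 0.23, adjusted p = 0.00374), and its change did not pass the test of the difference from WT (0.71, adjusted p = 0.444). By 24 hr it had fallen to 3.9, 3.93 and 3.96 RPKM (-3.16 ± 0.25, adjusted p = 6.7e-13). *Egr3*, which was not called between 0 and 4 hr in Stat5b WT cells, fell in Stat5b KI cells from 17.8, 18 and 16.4 RPKM to 5.97, 6.07 and 5.69 RPKM (-1.78 ± 0.22, adjusted p = 1.84e-08).

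Across the 16 groups *Crem* was highest in Stat5b WT cells at 4 hr, with a mean of 30.5 RPKM, and lowest in Stat5b KI cells at 48 hr, at 2.36 RPKM, and 2 of the 15 neighbouring pairs in that order stood apart without overlap. *Nr4a3* was highest at 0 hr in Stat5a KI cells (40.6 RPKM) and lowest in Stat5b KI cells at 48 hr (2.64 RPKM), also with 2 of 15 pairs apart. *Atf3* was highest in Stat5b KI cells at 0 hr (58.4 RPKM), with 5 of 15 pairs apart. Most neighbours in these orders thus do not differ beyond the spread of their libraries.

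In fresh cells, before any IL-2, Stat5b KI cells held more *Atf3*, *Egr2* and *Egr3* than WT cells, while *Crem* and *Nr4a3* stood at log2 -0.10 and -0.10 from WT. Of the 10 genes 3 were called at 0 hr in the Stat5b line, each higher in KI, where 7.98% of all genes were called and 7.38% were called higher. Among Stat5a cells 0 were called, where 1.04% of all genes were called and 0.861% were called higher, and 4 of the 10 passed the adjusted p alone. *Egr2* measured 3.72, 2.84 and 3.01 RPKM in Stat5b WT and 8.73, 9.61 and 8.42 RPKM in Stat5b KI cells, with no overlap (2.67-fold, 1.42 ± 0.26, adjusted p = 0.000104). *Egr3* measured 7.27, 5.80 and 6.45 RPKM in WT and 17.8, 18 and 16.4 RPKM in KI cells (1.35 ± 0.22, adjusted p = 2.63e-05). *Atf3* measured 21.1, 22.4 and 29.7 RPKM in WT and 56.4, 61.3 and 57.5 RPKM in KI cells (2.29-fold, 1.20 ± 0.22, adjusted p = 0.00016). In each of the 3 genes every KI library stood above every WT library. *Egr1* and *Nr4a1* stood at 0.92 ± 0.21 (adjusted p = 0.00118) and 0.67 (adjusted p = 0.00311), under 2-fold, and *Egr1* passed 2-fold without WT replicate 1 (1.13).

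In the Stat5a line at 0 hr *Egr2* measured 7.70, 9.19 and 2.71 RPKM in WT and 13.2, 12.1 and 11.8 RPKM in KI cells, and *Egr3* 11.2, 12.7 and 5.49 RPKM in WT and 19.1, 17.3 and 20.4 RPKM in KI cells. The KI libraries stood above the WT libraries, which spread widely. *Egr3*, *Egr2*, *Atf3* and *Egr1* stood at 0.93, 0.90, 0.83 and 0.71 (adjusted p = 0.0122, 0.0364, 0.0302 and 0.046), each under 2-fold. Without WT replicate 3, the low library, they stood at 0.61, 0.50, 0.61 and 0.47 and none passed the adjusted p (0.176 to 0.403), and without KI replicate 1 none passed it either (0.059 to 0.184). *Egr2*, *Atf3* and *Egr1* missed it also without WT replicate 1 or KI replicate 2, and *Egr2* and *Egr1* without KI replicate 3. Without WT replicate 2, *Egr2*, *Egr3* and *Atf3* reached 1.24, 1.17 and 1.08 and were called, and without WT replicate 1 *Egr3* reached 1.03. The differences of the KI effect between the lines at 0 hr were called for 0 of the 10 genes in edgeR, where 0.0964% of all genes were.

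Markers of other cells moved with these 0 hr differences. 5 B cell markers (*Ms4a1*, *Cd79a*, *Cd79b*, *Pax5* and *Blnk*) summed to 47.17, 45.07 and 52.58 RPKM in Stat5b WT and 184.8, 189.03 and 186.7 RPKM in Stat5b KI cells at 0 hr. For Stat5a they summed to between 48.58 and 133.6 RPKM in WT and to 247.6, 201.3 and 226.4 RPKM in KI cells, and WT replicate 3, the low library for *Egr2* and *Egr3*, was also the low one for the markers. *Cd79a* or *Cd79b* led the list, and no marker was at 0 reads in any library. Of the 5, 5 were called higher in Stat5b KI cells at 0 hr (7.38% of all genes) and 1 of 5 in Stat5a KI cells (0.861%). *Egr1*, *Egr2*, *Egr3* and *Atf3* are also expressed by B and myeloid cells, and the part of such cells in these differences was not tested. In bulk RNA a larger share of a cell type and more RNA per cell cannot be told apart.

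**Figure D3:**
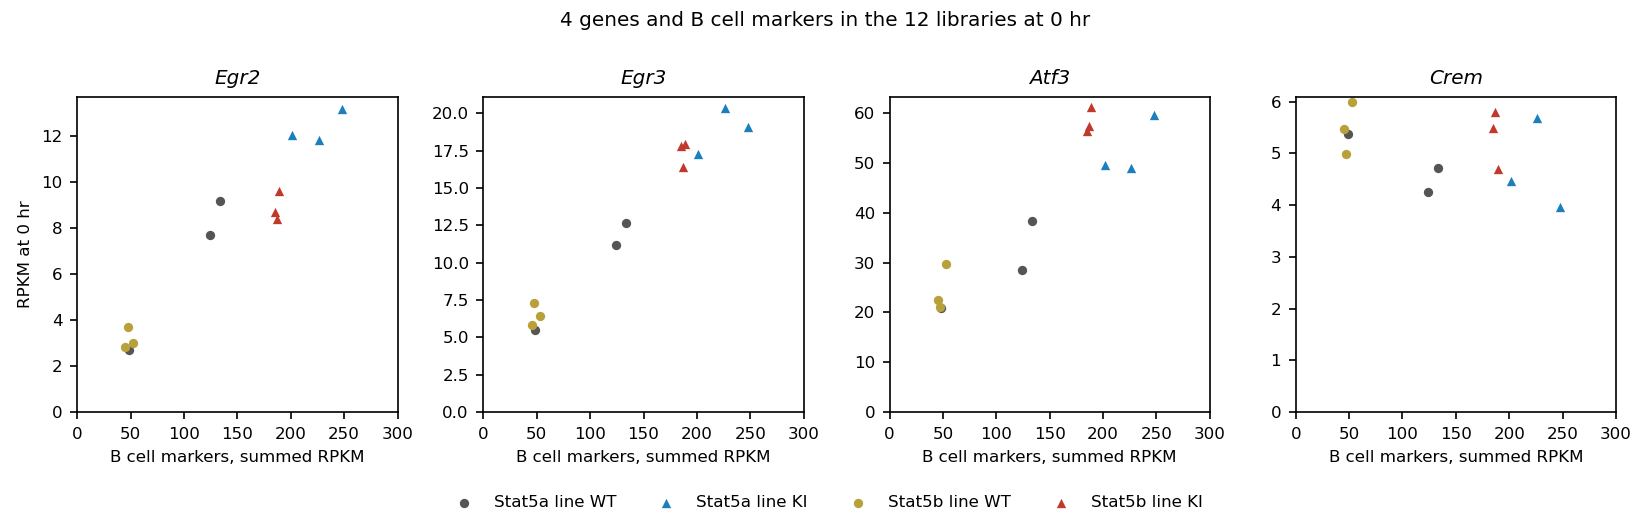
RPKM of *Egr2*, *Egr3*, *Atf3* and *Crem* (y axes) against the summed RPKM of 5 B cell markers (x axes) in the 12 libraries at 0 hr, with a point for each library. Libraries low in the markers, such as Stat5a WT replicate 3 at 48.58 RPKM, are low in *Egr2* (2.71 RPKM) and *Egr3* (5.49 RPKM), while *Crem* spans 3.96 to 6.00 RPKM without following them.

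The other marker lists at 0 hr had these values, beside 7.38% (Stat5b) and 0.861% (Stat5a) of all genes called higher in KI cells. The 6 myeloid markers measured, led by *Lyz2*, summed to 28.71, 30.82 and 35.31 RPKM in Stat5b WT and 144.1, 108.8 and 95.1 RPKM in Stat5b KI cells, and 5 were called higher, against 2 in the Stat5a line (38.18, 48.93 and 29.09 RPKM in WT, 96.02, 73.14 and 64.73 RPKM in KI cells). Of 5 dendritic markers 1 was called higher in Stat5b KI cells, of 4 CD4+ T cell markers 1, of 5 erythroid markers 5 and of 3 granulocyte markers 2. These 4 lists had 0 calls at 0 hr in the Stat5a line. NK markers had 1 call, *Klrb1c*, lower in Stat5b KI cells (-1.99). CD8+ T cell markers had 0 calls in either line in edgeR, with medians of -0.24 (Stat5a) and -0.35 (Stat5b), and *Cd8b1* passed the adjusted p in both (-0.37 and -0.47). With culture of WT cells from 0 to 4 hr, 4 of the 6 myeloid and 5 of the 5 dendritic markers were called lower in Stat5a WT, and 3 and 5 in Stat5b WT (11.4% and 9.89% of all genes), beside the falls of *Atf3*, *Egr1* and the *Nr4a* genes. The part of these cells in those falls was not tested.

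At 4 hr with IL-2, *Crem* passed the adjusted p in the Stat5b line with lower values in KI than in WT cells, short of 2-fold, and in the Stat5a line it passed or missed it depending on the library left out. In the Stat5b line WT libraries measured 33.0, 30.1 and 28.4 RPKM and KI libraries 19.8, 21.0 and 17.5 RPKM. The groups do not overlap (-0.76 ± 0.18, adjusted p = 0.00178). Stat5a WT cells measured 14.2, 10.8 and 28.4 RPKM and KI 11.7 and 16.7 RPKM, which overlap on RPKM (-0.57 ± 0.21, adjusted p = 0.0447). Without WT replicate 3 the value was -0.27 (adjusted p = 0.292). Without KI replicate 1 it was -0.30 (adjusted p = 0.5), a fit with 1 KI library at 4 hr that is assumed to vary like the other groups. *Nr4a1* went the other way in the Stat5b line, with 25.6, 20.2 and 16.3 RPKM in WT and 38.4, 44.7 and 28.3 RPKM in KI cells (0.73, adjusted p = 0.00117), and *Nr4a2*, *Egr2* and *Nr4a3* stood at 0.74, 0.68 and 0.61 (adjusted p = 0.0193, 0.0401 and 0.0464). Without WT replicate 2, WT replicate 3 or KI replicate 2, none of these 3 passed the adjusted p, and without KI replicate 1 *Egr2* and *Nr4a3* did not. B cell markers summed to 39.65, 35.19 and 45.96 RPKM in Stat5b WT and 169.8, 187.5 and 176.5 RPKM in Stat5b KI cells at 4 hr, and myeloid markers to 16.5, 15.4 and 20.04 RPKM and 77.7, 63.6 and 62.5 RPKM. The part of such cells in the 4 hr differences was not tested. None of these genes passed 2-fold, so 0 of the 10 genes were called in the Stat5a line (6.63% of all genes) and 0 in the Stat5b line (10.4%). At the adjusted p alone 1 and 5 passed.

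At 24 and 48 hr *Nr4a3* was lower in KI cells of both lines. At 24 hr Stat5b WT libraries measured 10.9, 12.6 and 7.16 RPKM and KI libraries 3.9, 3.93 and 3.96 RPKM (2.65-fold lower, -1.40 ± 0.24, adjusted p = 8.96e-06). Stat5a WT libraries measured 4.25, 7.03 and 9.13 RPKM and KI libraries 4.43, 3.16 and 2.42 RPKM, with KI replicate 1 above WT replicate 1 (-1.10 ± 0.25, adjusted p = 0.00169). That call was lost without WT replicate 3 (-0.85) or KI replicate 3 (-0.91), and limma on RPKM put the change under 2-fold with a pseudocount of 1 (-0.82, adjusted p = 0.00415) or 0.1 (-0.98). At 48 hr the groups were apart in both lines, at 10.7, 9.69 and 10.7 RPKM in Stat5b WT and 2.80, 2.85 and 2.27 RPKM in Stat5b KI cells (4.15-fold lower, -2.05 ± 0.25, adjusted p = 7.34e-09). Stat5a WT cells measured 8.87, 9.2 and 11 RPKM and Stat5a KI cells 5.15, 3.73 and 4.70 RPKM (2.22-fold lower, -1.15 ± 0.24, adjusted p = 0.000163), and limma with a pseudocount of 1 gave -0.96 (adjusted p = 0.000219).

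*Crem* at 48 hr measured 5.66, 6.72 and 4.51 RPKM in Stat5b WT and 2.52, 2.33 and 2.23 RPKM in Stat5b KI cells, 2.52-fold lower with no overlap (-1.34 ± 0.20, adjusted p = 3.03e-07). The distal-start row of *Crem* stood at -0.09 in that comparison (adjusted p = 0.722). Limma on RPKM with a pseudocount of 1 put *Crem* and *Nr4a1* under 2-fold at 48 hr in the Stat5b line. In the Stat5a line *Crem* measured 2.92, 4.32 and 5.37 RPKM in WT and 2.48, 2.53 and 2.16 RPKM in KI cells (-0.87 ± 0.20, adjusted p = 0.000412), and reached -1.07 and a call without WT replicate 1. *Nr4a1* at 48 hr was 6.56, 5.80 and 6.71 RPKM in Stat5b WT and 3.58, 3.44 and 2.91 RPKM in Stat5b KI cells (2.03-fold lower, -1.02 ± 0.18, adjusted p = 8.83e-06), at the edge of the 2-fold rule, since with the scaling held it dropped just under 2-fold without KI replicate 3 (-0.95) or WT replicate 1 or 3 (-0.99 each). *Egr3* was lower at 24 hr in Stat5b KI cells, at 3.41, 3.54 and 4.27 RPKM against 7.68, 9.01 and 5.57 RPKM in WT (-1.02 ± 0.22, adjusted p = 0.000217). It fell short of 2-fold without WT replicate 1 or 2 (-0.98 and -0.86) or KI replicate 1 or 2 (-0.95 and -0.99).

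Counted together, 1 of the 10 genes was called at 24 hr in the Stat5a line (4.45% of all genes) and 1 at 48 hr (8.78%), *Nr4a3* both times. In the Stat5b line 2 were called at 24 hr (16.7%), *Egr3* and *Nr4a3*, and 3 at 48 hr (26.3%), *Crem*, *Nr4a1* and *Nr4a3*. Each of these calls was lower in KI, and at 48 hr 2.43% of all genes were called lower for Stat5a and 9.81% for Stat5b. The B cell markers were higher in KI cells at 48 hr, at 11.24, 9.80 and 11.55 RPKM in Stat5b WT and 108.2, 105.5 and 110.8 RPKM in Stat5b KI cells, with 5 of 5 called higher in each line, where 6.35% (Stat5a) and 16.5% (Stat5b) of all genes were. The part of such cells in the lower calls was not tested.

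**Figure D4:**
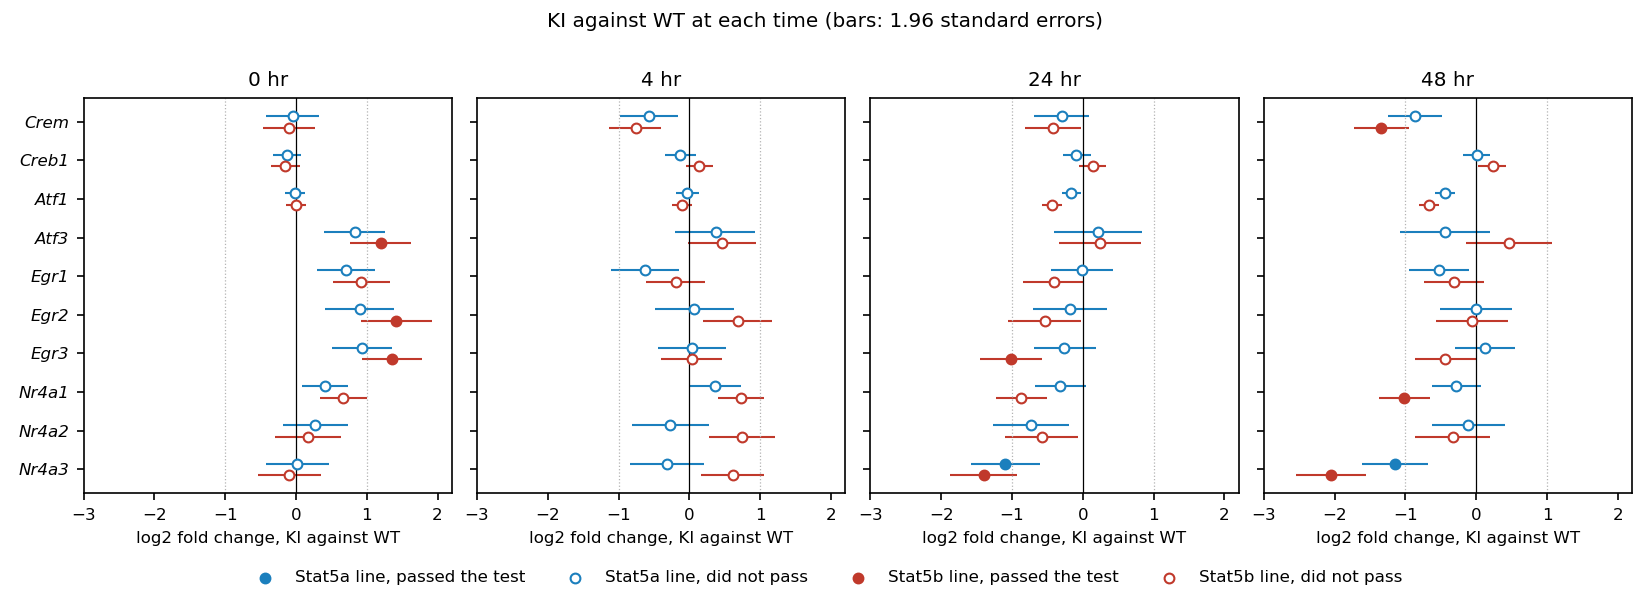
log2 fold change of KI against WT (x axes) for each of the 10 genes at 0, 4, 24 and 48 hr in both lines, with bars for the normal confidence interval from the standard error of the edgeR fit, filled points for called genes and dotted lines at 2-fold. *Egr2*, *Egr3* and *Atf3* lie above 0 at 0 hr, and *Nr4a3* (-2.05), *Crem* (-1.34) and *Nr4a1* (-1.02) lie below it at 48 hr in the Stat5b line.

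The change from 0 hr itself differed between KI and WT cells for more of these genes. In the Stat5b line 2 of the 10 genes were called at 4 hr (0.610% of all genes), 5 at 24 hr (10.2%) and 6 at 48 hr (21.4%). In the Stat5a line 1 was called at 4 hr (0.340%), 2 at 24 hr (1.59%) and 3 at 48 hr (6.25%). Each call was a more negative change in KI cells. *Egr3* had the largest difference, at log2 -2.37 in the Stat5b line at 24 hr (adjusted p = 1.23e-07), where WT cells stood at 0.00 from 0 hr and the KI libraries had gone from 17.8, 18 and 16.4 RPKM to 3.41, 3.54 and 4.27 RPKM. *Crem* was called at 48 hr in the Stat5b line (-1.23, adjusted p = 0.000257). The comparisons share their 0 hr libraries. With the genes and scaling held, leaving out 1 library gave counts of 0 to 2 at 4 hr and 0 to 4 at 24 hr in the Stat5a line and of 1 to 2 at 4 hr in the Stat5b line. The Stat5a count at 48 hr ran from 2 to 5, the latter without WT replicate 2 at 0 hr. With every library kept, a fit of only the groups compared gave 0 at 4 hr and 0 at 24 hr in the Stat5a line, and the replicate block gave 3 at 24 hr, *Egr2* being added (-1.08 without the block, -1.16 with it, adjusted p = 0.0786 and 0.0435).

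Whether the KI effect differed between the lines was tested at each time. Of the 10 genes 0 were called at 4 hr (4.72% of all genes), 24 hr (2.65%) and 48 hr (2.06%) by edgeR, and at an adjusted p alone 0 as well. The differences nearest to a call were *Nr4a2* at 4 hr (1.01 ± 0.37, adjusted p = 0.0682), *Nr4a3* at 4 hr (0.93, adjusted p = 0.0761) and *Nr4a1* at 48 hr (-0.74, adjusted p = 0.053). DESeq2 called *Nr4a2* and *Nr4a3* at 4 hr. With 1 library left out and the rest scaled anew, *Nr4a2* ran from 0.76 to 1.31 and *Nr4a3* from 0.61 to 1.20 at 4 hr. In some of these fits edgeR called them. With all 47 libraries in the fit, the larger effects of the Stat5b line are thus not shown by edgeR to differ from the Stat5a line.

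The other immediate-early genes, a list of 29 that holds *Fos*, *Jun*, *Ier* and *Klf* genes and their kin, held no gene that rose at 4 hr as *Crem* did. At 4 hr in WT cells 27 of 29 were called lower and 0 higher in the Stat5a line (median -2.68), and 24 lower and 0 higher in the Stat5b line (median -1.93), where 11.4% and 9.89% of all genes were called lower. Leading were *Fosb* (-6.50 and -5.64), *Fos* (-5.51 and -5.30) and *Klf4* (-5.39 and -4.68). In KI against WT cells at 0 hr 0 were called for Stat5a (1.04% of all genes) and 1, higher, for Stat5b (7.98%). STAT5 targets went the other way with culture, 10 of 13 being called higher and 0 lower in each line at 4 hr (medians 2.09 and 2.06), beside 10.0% and 5.83% of all genes called higher. They were led by *Lta* (3.38 and 3.71), the cytokine lymphotoxin alpha, with *Il2ra* (2.97) and *Cish* (2.36) in Stat5a WT and *Cish* (3.33) and *Socs1* (3.07) in Stat5b WT cells. In KI against WT cells at 48 hr 6 of the 13 were called lower in the Stat5a line (median -0.84) and 9 in the Stat5b line (median -1.84), beside 2.43% and 9.81% of all genes, led by *Gzmb* (-4.30), *Lif* (-4.05) and *Lta* (-3.62) in the latter. The study listed *Il2ra*, *Il2rb*, *Cish*, *Socs2*, *Lta*, *Gzmb* and *Lif* as STAT5 targets partly by their lower mRNA in KI cells of this same RNA-Seq. The count of genes lower in KI cells is therefore not independent of how such genes were picked.

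Of 21 CREB kinases, phosphodiesterases and coactivators, 1 was called higher and 2 lower at 4 hr in Stat5a WT cells, and 1 higher and 1 lower in Stat5b WT cells, beside 21.4% and 15.7% of all genes called in either direction. *Camk4*, a calcium-dependent kinase that phosphorylates CREB, rose (1.74 and 1.54) and *Prkar2b*, a regulatory subunit of protein kinase A, fell (-1.25 and -1.18). Of 13 SRF, ELK, MEF2 and NFAT regulators 1 was called higher, *Mkl1* (1.15 and 1.07), and 1 lower, *Hdac7* (-1.62 and -1.64), in each line, a share no higher than that of all genes (21.4% and 15.7%). *Mkl1* encodes a coactivator of serum response factor and *Hdac7* a deacetylase that holds MEF2 targets silent. Of 8 corepressors and partners of EGR and NR4A proteins, 0 were called in edgeR at 4 hr in either line (medians -0.17 and -0.26).

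Among 10 genes of the ATF and stress response, 2 were called higher and 5 lower at 4 hr in Stat5a WT cells and 2 higher and 3 lower in Stat5b WT cells, where 10.0% and 11.4% of all genes (Stat5a) and 5.83% and 9.89% (Stat5b) were called higher and lower. *Ppp1r15a* (-3.78 and -3.25), which restores translation after stress, and *Cebpb* (-3.51 and -3.12) fell, and *Cebpg* rose (1.42 and 1.65). At 48 hr in the Stat5b line 4 of the 10 were called lower in KI than in WT cells (9.81% of all genes), led by *Asns* (-3.67), *Chac1* (-2.84) and *Trib3* (-1.49), which are targets of ATF4, while *Atf3* measured 0.606, 0.616 and 0.441 RPKM in WT and 1.08, 0.661 and 0.704 RPKM in KI cells, with no test passed (0.46, adjusted p = 0.198).

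Among 15 T cell genes linked to EGR and NR4A factors, 3 were called higher and 5 lower at 4 hr in Stat5a WT cells and 3 higher and 4 lower in Stat5b WT cells. Of all genes 10.0% were called higher and 11.4% lower in the former, and 5.83% and 9.89% in the latter. *Pdcd1* (2.45 and 2.97), the inhibitory receptor PD-1, *Ndrg1* (1.76 and 1.83) and *Nt5e* (1.56 and 1.49) rose, and *Ctla4* (-2.08 and -1.89), *Tox2* (-1.54 and -1.33) and *Lag3* (-1.33 and -1.28) fell. *Tox2* was low at both times, with group means of 0.368 and 0.125 RPKM in Stat5a WT and 0.549 and 0.244 RPKM in Stat5b WT cells. In KI against WT cells of the Stat5b line 4 of 15 were called higher at 0 hr and 7 at 24 hr, led at 24 hr by *Tox2* (3.34), *Tigit* (1.40) and, between them, *Lag3*, with 0 lower at either time. Of all genes 7.38% and 10.9% were called higher at those times. The group means behind the value of *Tox2* at 24 hr were low, at 0.12 RPKM in Stat5b WT and 1.27 RPKM in Stat5b KI cells. At 24 hr in Stat5b KI cells 5 of 5 B cell, 6 of 6 myeloid and 3 of 4 CD4+ T cell markers were called higher too, the last summing to 6.04, 5.97 and 5.96 RPKM in WT and 20.5, 20.1 and 20.02 RPKM in KI cells, and the part of such cells was not tested. At 24 hr in the same cells *Egr2* measured 3.12, 3.30 and 2.26 RPKM in WT and 1.92, 2.33 and 1.83 RPKM in KI cells, which overlap (-0.54, adjusted p = 0.0798). The Stat5a line had 2 called higher at 0 hr and 0 at 24 hr, where 0.861% and 3.21% of all genes were.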

How the data were processed

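RNA-Seq libraries were made with the KAPA mRNA HyperPrep kit and read as 50 bp single ends. The submitters' processing notes name Bowtie2 2.2.6, TopHat2 2.0.11, SAMtools 0.1.8, bedtools 2.25.0, edgeR and the build mm10. The authors counted uniquely mapped reads per RefSeq transcript, and the deposited tables give a read count and an RPKM for each of 31682 transcript rows. The counting program, and whether it used strand, are not given in the sources used here. The ChIP-Seq sample was not analysed here.

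Counts of the longest transcript per symbol (19649 of 23992 symbols have 1 transcript) were filtered (filterByExpr, minimum count 10), scaled by TMM and tested by edgeR 4.0.16 quasi-likelihood (limma 3.58.1, R 4.3.3) in 1 fit of 16 groups, with contrasts between times, genotypes, their interaction and lines. A call needed an adjusted p no higher than 0.05 with a fold change no smaller than 2. RPKM served for levels. The members and lists were chosen with earlier results of these data known. 1 gene of the B cell marker list is not reported here and was left out of the sums and counts. Named are each member, each *Crem* transcript, up to 3 leading called genes of a list in each direction and the 5 genes most like *Crem*, *Egr2* and *Nr4a1* over group means. A count of 3 reads corresponds to 0.0498 to 0.173 CPM and covers counting error only. Alternatives were no filter, no fold threshold, DESeq2 size factors, DESeq2 1.42.0, limma on RPKM with a pseudocount of 1 or 0.1, only the groups compared, all 48 libraries, the shortest transcript, a replicate block and leaving out each library, with the rest scaled anew or with the genes tested and the scaling held (chosen after seeing the data). Equal replicate numbers paired the 0 hr and the 24 and 48 hr libraries of Stat5a WT cells, where deviations from group means correlated at 0.206 to 0.419 and 0.117 to 0.192, and in no other comparison were all 3 pairs above 0.1. Python 3.11.15, pandas 2.3.3, numpy 2.4.6 and matplotlib 3.10.9 were used.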

Additional observations from a re-analysis of the deposited data

Results flagged for a closer look

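The tests of a difference between KI and WT cells in the change from 0 hr passed for 19 combinations of gene, line and time. Each is singled out because that change differed, which a difference at 0 hr alone can give. In the Stat5b line *Egr2* had group means of 3.19 (WT) and 8.92 RPKM (KI) at 0 hr and 2.26 and 2.29 RPKM at 48 hr. *Egr3* had 6.51 and 17.4 RPKM at 0 hr and 5.36 and 5.91 RPKM at 4 hr. *Crem* went the other way, at 5.48 and 5.33 RPKM at 0 hr and 5.63 and 2.36 RPKM at 48 hr. Values are log2 differences from edgeR, more negative in KI cells, with Benjamini-Hochberg adjusted p over all genes.

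In the Stat5b line at 24 hr *Egr3* differed by -2.37 (adjusted p = 1.23e-07), *Egr2* by -1.96 (4.51e-05), *Nr4a1* by -1.54 (5.09e-06), *Egr1* by -1.33 (0.000562) and *Nr4a3* by -1.31 (0.00196). At 48 hr *Nr4a3* differed by -1.95 (7.9e-06), *Egr3* by -1.79 (7.93e-06), *Nr4a1* by -1.69 (4.48e-07), *Egr2* by -1.48 (0.000811), *Egr1* by -1.24 (0.000724) and *Crem* by -1.23 (0.000257). None of these 11 calls was lost on leaving out a library. At 4 hr *Egr3* differed by -1.33 (0.0111) and *Egr1* by -1.11 (0.0343). With a library left out and the rest scaled anew, *Egr3* lost its call without WT replicate 2 at 0 hr (-1.19, adjusted p = 0.0603) and *Egr1* for 10 of its 12 libraries. With the genes and scaling held *Egr3* kept it there (-1.24, adjusted p = 0.0451) and *Egr1* lost it for 8 of the 12.

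In the Stat5a line at 48 hr *Atf3* differed by -1.26 (0.0138), *Egr1* by -1.24 (0.00189) and *Nr4a3* by -1.18 (0.00678), and *Atf3* lost its call without replicate 3 of the WT (-1.12) or KI (-1.06) group at 48 hr. At 24 hr *Egr3* differed by -1.18 (0.0169) and *Nr4a3* by -1.12 (0.0424). *Egr3* lost its call without WT replicate 3 at 0 hr (-0.90), WT replicate 2 at 24 hr (-1.09) or KI replicate 2 at 24 hr (-1.09), and *Nr4a3* lost it for 9 of its 12 libraries (-0.86 to -1.18), and for 9 as well with the genes and scaling held. With only the groups compared and every library kept, 0 genes were called at 24 hr or at 4 hr. All 48 libraries gave 0 at 24 hr as well. At 4 hr *Egr1* differed by -1.34 (0.026) and lost its call without WT replicate 3 (-1.14) or KI replicate 2 (-1.32) at 0 hr, or WT replicate 2 at 4 hr (-0.91). Without KI replicate 1 at 4 hr 1 KI library is left, assumed to vary like the other groups, and the value stayed at -1.34 while the adjusted p rose to 0.199. *Egr1*, *Egr2*, *Egr3* and *Atf3* stood higher in KI cells at 0 hr, where B cell and myeloid markers also did, and the part of those cells in the differences was not tested.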

How the results depend on the processing

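The counts below are of the 10 genes called. Without a fold threshold, counts moved to 2 in each WT line from 24 to 48 hr, to 4, 1 and 4 at 0, 4 and 48 hr for KI against WT in the Stat5a line, to 5, 5, 4 and 5 at 0, 4, 24 and 48 hr in the Stat5b line, and to 7 for the difference in response at 48 hr in the Stat5a line. By limma on log2(RPKM + 1) they moved to 2 in each WT line from 4 to 24 hr, to 0 and 0 at 24 and 48 hr for KI against WT in the Stat5a line, to 1 and 1 in the Stat5b line, and to 0 for the difference in response at 4 hr in the Stat5a line. With a pseudocount of 0.1 KI against WT gave 2 and 0 for Stat5a (0 and 24 hr) and 1 for Stat5b (24 hr), with 0 and 1 for the difference in response at 4 and 24 hr for Stat5a. DESeq2 size factors gave 1 and DESeq2 gave 1 at 24 hr in the Stat5b line, and DESeq2 gave 2 for the lines at 4 hr (*Nr4a2* 1.11, *Nr4a3* 1.04). With only the groups compared, the Stat5a difference in response gave 0 (4 hr) and 0 (24 hr). All 48 libraries gave 0 for it at 24 hr and 0 for the Stat5b line at 4 hr. The cause was not tested.

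With the shortest transcript, the distal-start row, *Crem* reversed to 0.52 at 24 hr and 0.45 at 48 hr against 0 hr in Stat5b KI cells and to 0.19 for the difference in response at 48 hr. Leaving out each library, with the rest scaled anew, gave 0 to 1 genes from 24 to 48 hr in Stat5b WT, 0 to 3, 0 to 2 and 1 to 2 at 0, 24 and 48 hr for KI against WT in the Stat5a line, and 0 to 1 and 1 to 2 at 4 and 24 hr in the Stat5b line. For the difference in response it gave 0 to 2, 0 to 4 and 2 to 5 at 4, 24 and 48 hr in the Stat5a line and 0 to 2 at 4 hr in the Stat5b line, and 0 to 2 for the lines at 4 hr. In these refits 5 of 214 values lay outside their own range. With the genes and scaling held, an alternative chosen after seeing the data, 0 did, and 13 of 1276 gene values had another verdict. With the replicate block no count moved by over 1.5 times, and 1 call was gained, *Egr2* in the difference in response at 24 hr in the Stat5a line (-1.16, adjusted p = 0.0435). Without a filter no call changed. Likeness to *Crem* fell from 0.945 to 0.73 for *Pofut2* on log2(RPKM + 1).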
